A study of Mus musculus with 8 samples.

Results

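Integrins and cadherins are the surface proteins that hold a cell to its matrix and to its neighbours. The genes described here are those whose annotated symbol fits the Itga, Itgb or Cdh naming patterns, with 1 symbol per row and the brightest row kept where a gene had several. They are 48 of the 22180 genes measured, 25 integrin genes and 23 cadherin genes. Names alone chose the genes, and brightness over all 8 arrays chose the row of a gene.

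An integrin is a pair of 1 alpha and 1 beta chain. The pair decides the ligand, such as laminin in a basement membrane, collagen, or proteins that carry the RGD motif. Talins and kindlins tie most beta chains to actin, whereas the beta chain encoded by Itgb4 is tied to keratin in hemidesmosomes. Classical cadherins bind the same cadherin on the next cell and are held to actin by catenins. In skin, melanocytes and their precursors are attached to keratinocytes through E-cadherin (Cdh1) and P-cadherin (Cdh3), and loss or exchange of cadherins accompanies their movement in development and in melanoma.

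The arrays were hybridised with amplified cDNA of cells sorted from whole skin as GFP positive and negative for the surface receptor p75. GFP came from the Z/EG reporter after recombination by Tyr::Cre, a Cre driven by the tyrosinase promoter that all 3 groups carry, on a mixed C57Bl/6 and 129/Sv background. P4_WT holds 2 arrays of cells called melanoblasts, from pups of 4 days with wild-type B-raf and C-raf. P21_WT holds 2 arrays of cells called melanocyte stem cells, from mice of 21 days with the same genotype. P21_KO holds 4 arrays of cells sorted in the same way at 21 days, from mice with floxed alleles of both B-raf and C-raf. P21_KO replicates 2, 3 and 4 carry 1 shared number in their labels, and whether they come from independent animals is not known. All p-values therefore reflect array-to-array spread only, which may in part be technical.

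Braf, 1 of the 2 targeted genes, read 5.80 and 6.00 in P4_WT, 5.99 and 7.20 in P21_WT, and 6.57, 6.49, 6.30 and 5.66 in P21_KO in order of replicate. These ranges overlap, and where the probes lie relative to the deleted part is not known here. C-raf was not analysed here. The mean over 12 melanocyte lineage markers was 9.35 and 9.20 in P4_WT and 7.86 and 7.79 in P21_WT. In P21_KO it was 7.48, 7.10, 6.56 and 6.09. Not every marker was bright on the P21 arrays, where Oca2 read 4.16 and 3.41 in P21_WT and 3.05 to 3.53 in P21_KO. In P21_KO against P4_WT, 11 of the 12 were lower, 8 of them called, and Sox10 was called higher. P4_WT replicate 2 read 5.34 for the mean of 14 leukocyte markers against 2.91 to 3.41 on the other arrays, and 4.77 for 15 endothelial markers against 3.12 to 3.43. Its 7 mast cell markers averaged 4.56 against 2.13 to 2.38, and it alone was bright for Xist (8.94). Both P4_WT arrays, replicate 1 most, carried hair shaft and inner root sheath markers. The mean of 13 such genes was 5.49 and 3.76 there and 2.65 to 2.78 on the P21 arrays, and Krt25, Krt27 and Krt71 were called lower by age. Their part in the age differences was not tested. P21_KO replicate 4 stood apart on the second principal component (-48.4 against -10.2 to 22.5).

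The integrin genes Itgb4, Itga7 and Itgb8 were higher on every array from mice of 21 days than on both arrays from pups of 4 days. So were Itgav, Cdh12, Cdh13 and Cdh26, by smaller differences. Itga4 was lower on every array from the older mice, as were Itga5, Itgb1, Cdh5, Cdh11 and, by less than the digits shown, Cdh2. The share of all genes that separated in this way is not given here. Itga1 was lower in P21_KO than in P4_WT, while both P21_WT arrays lay within or next to the P4_WT range. No cadherin gene passed the threshold in any of the 3 comparisons as fitted here, and the settings under which Cdh2, Cdh5 or Cdh6 did pass are given with each gene. The genotype comparison called no member and no other gene.

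Against P4_WT, P21_WT cells had 2 of the 48 members called by limma at an adjusted p under 0.05, both higher, where 1.61% of all genes were called (0.757% higher and 0.852% lower). P21_KO cells against P4_WT had 5 called members, 3 higher and 2 lower, where 7.73% of all genes were called (3.05% higher and 4.68% lower). Age and genotype differ together in that comparison and cannot be told apart, and it shares the P4_WT arrays with the age comparison. Between P21_KO and P21_WT, 0 of 48 members were called, where 0% of all genes were. At an unadjusted p under 0.05 there were 4 members in that comparison, which is 8.33% of the 48, against 6.52% of all genes. The median log2 change of the members was 0.01 by age, -0.06 by genotype and -0.07 for P21_KO against P4_WT. Over all genes these medians were 0.00, 0.01 and 0.02.

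**Figure D1:**
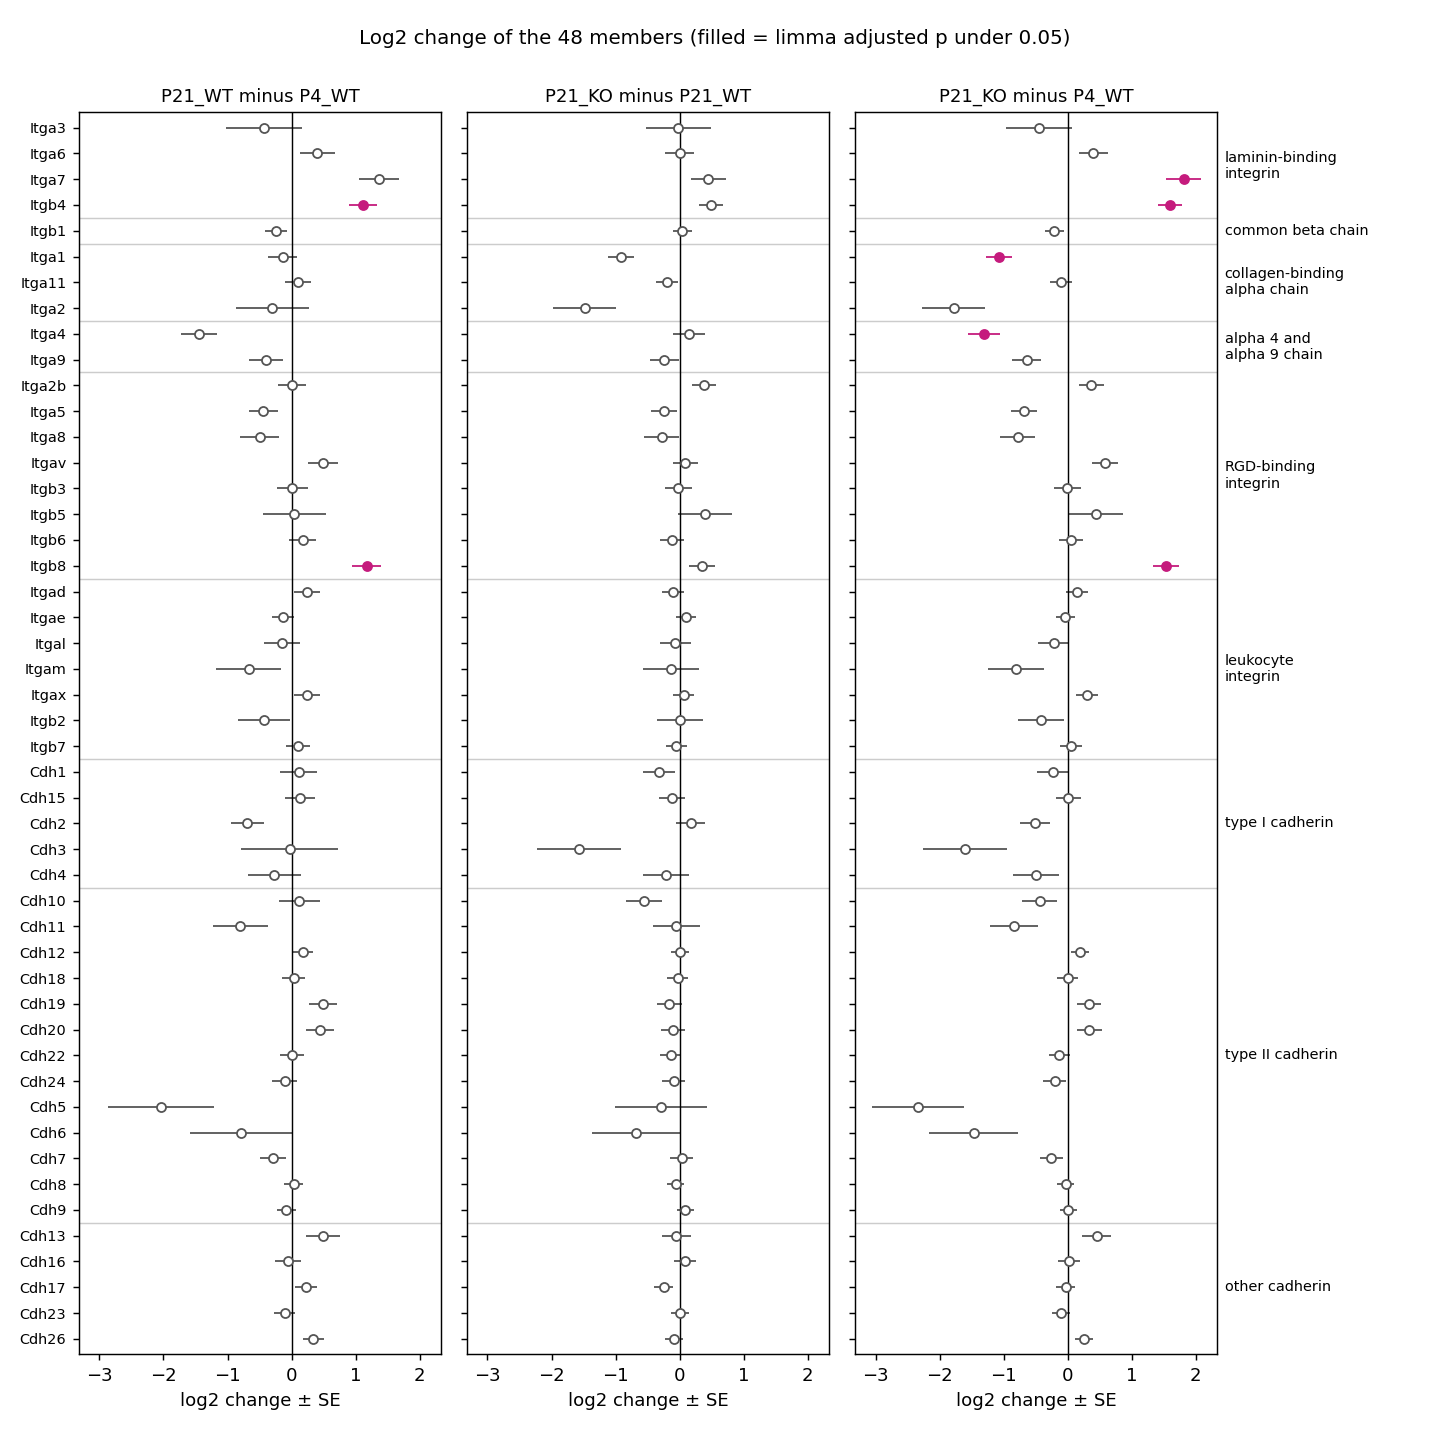
Log2 change ± SE from the limma fit for each of the 48 genes, grouped by role, in the 3 comparisons. Filled points passed an adjusted p of 0.05, which are Itgb4 and Itgb8 by age, none by genotype, and Itga7, Itgb4, Itgb8, Itga1 and Itga4 for P21_KO against P4_WT.

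Values are on a log2 scale, so a difference of 1 is a doubling of the array signal, and levels of different genes are not set against each other. The median of all values was 3.16 to 3.27 on each array. Above that median on all 8 arrays were 24 members. Another 13 were below it on all 8 (Cdh8, Cdh9, Cdh12, Cdh16, Cdh17, Cdh18, Cdh20, Cdh23, Cdh26, Itgad, Itgae, Itgax and Itgb6), where differences are compressed and a real change could be missed. The remaining 11 crossed it.

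Promoter sequence was at hand for 30 of the 48 members in the RefSeq table of assembly GRCm38.p6. It is shown for the 3 called genes with an entry, Itgb8, Itga4 and Itga1, and for Itga2, the neighbour of Itga1 on chromosome 13, whose values resembled those of Itga1. Each line gives the 250 bases before the annotated start, 5′ to 3′ on the gene's strand. Capitals mark any of 5 motifs, sought on both strands. These were CACGTG and CATGTG, the E-boxes bound by MITF-type factors, CACCTG, the E-box bound by Snail and Zeb factors, and ACAAAG and ACAATG, cores bound by SOX factors. No motif lies within another.
Itgb8, chr12:119238277-119238526, minus strand: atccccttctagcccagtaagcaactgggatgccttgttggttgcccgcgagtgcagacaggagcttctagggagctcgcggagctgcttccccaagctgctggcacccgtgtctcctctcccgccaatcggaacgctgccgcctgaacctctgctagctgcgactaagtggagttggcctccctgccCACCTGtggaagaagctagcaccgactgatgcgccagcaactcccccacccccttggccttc
Itga4, chr2:79255176-79255425, plus strand: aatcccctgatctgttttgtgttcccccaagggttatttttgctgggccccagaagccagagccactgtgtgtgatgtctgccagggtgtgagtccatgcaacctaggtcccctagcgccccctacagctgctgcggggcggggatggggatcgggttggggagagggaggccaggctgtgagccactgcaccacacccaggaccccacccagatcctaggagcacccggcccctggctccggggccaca
Itga1, chr13:115101965-115102214, minus strand: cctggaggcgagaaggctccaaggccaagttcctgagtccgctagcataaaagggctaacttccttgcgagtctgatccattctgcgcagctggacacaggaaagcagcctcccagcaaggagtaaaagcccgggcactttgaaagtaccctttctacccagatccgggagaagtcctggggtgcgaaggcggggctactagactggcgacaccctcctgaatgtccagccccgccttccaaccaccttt
Itga2, chr13:114932101-114932350, minus strand: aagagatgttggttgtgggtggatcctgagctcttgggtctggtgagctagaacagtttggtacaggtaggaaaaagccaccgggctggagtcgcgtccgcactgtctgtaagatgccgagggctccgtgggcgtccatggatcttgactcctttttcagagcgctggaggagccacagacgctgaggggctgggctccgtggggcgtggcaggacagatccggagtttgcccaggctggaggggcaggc
The Itgb8 window held 1 match, to CACCTG, a motif found in 17.2% of the 32851 windows of this length. The other windows held none of the letters sought. CACGTG stood in 6.02% of all windows, CATGTG in 12.3%, ACAAAG in 16.5% and ACAATG in 10.7%.

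Among the laminin-binding integrin genes, Itgb4 encodes the beta chain that pairs only with the Itga6 chain and anchors cells to laminin in hemidesmosomes. It read 5.62 and 5.55 in P4_WT, 6.43 and 6.97 in P21_WT, and 7.17, 7.23, 7.36 and 6.99 in P21_KO. The 3 groups did not overlap. By age it rose 2.17-fold (log2 1.11 ± 0.22 SE, limma adjusted p = 0.0493), and P21_KO exceeded P4_WT 3.03-fold (log2 1.60 ± 0.19 SE, limma adjusted p = 0.00213). The difference of 0.49 ± 0.19 (SE) between P21_KO and P21_WT did not pass (limma adjusted p = 0.733). The age call was lost in each of the 8 fits that left out 1 array, with a change of 0.84 to 1.38, whereas the call against P21_KO held in all 8.

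Itga7 encodes a laminin-binding alpha chain that pairs with the Itgb1 chain and is best known from muscle. Both P4_WT arrays read 4.57, the P21_WT arrays 5.65 and 6.21, and the P21_KO arrays 6.28, 6.65, 6.73 and 5.88. Arrays from older mice were all higher, and the P21_WT and P21_KO ranges overlapped. P21_KO exceeded P4_WT 3.51-fold (log2 1.81 ± 0.27 SE, limma adjusted p = 0.0059), a call kept in all 19 alternatives. By age the difference was 1.36 ± 0.31 (SE), with a limma adjusted p of 0.0797. It was called in 4 of 19 alternatives, among them the fit without P21_KO replicate 4 (0.0466).

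The other laminin receptor chains were not called. Itga6, the alpha chain that pairs with either Itgb1 or Itgb4, read 7.97 and 8.05 in P4_WT, 8.37 and 8.44 in P21_WT, and 7.86 to 8.66 in P21_KO. Its difference by age was 0.40 ± 0.27 (SE). Itga3, a laminin-binding partner of Itgb1, read 5.71 and 3.54 on the P4_WT arrays, which spans all values from older mice (3.81 to 4.56). Its difference for P21_KO against P4_WT was -0.45, and -1.54 without P4_WT replicate 2 (limma adjusted p of 0.703 and 0.039). Itgb1 encodes the beta chain shared by most of these receptors. It read 8.55 and 8.56 in P4_WT, 8.40 and 8.23 in P21_WT, and 8.22 to 8.52 in P21_KO. The 95% interval of its genotype difference ran from -0.30 to 0.37 on the log2 scale, and that of its age difference from -0.63 to 0.14.

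Itgb8 encodes a beta chain that pairs with the Itgav chain and binds the latent form of TGF-beta. On the P4_WT arrays it read 7.77 and 7.06, on P21_WT 8.62 and 8.57, and on P21_KO 8.99, 8.84, 8.98 and 8.97. The groups did not overlap. By age it rose 2.26-fold (log2 1.17 ± 0.23 SE, limma adjusted p = 0.0499), a call that 1 of the 8 fits with an array left out kept. That fit was without P4_WT replicate 1 (1.53) and rested on replicate 2, the array with bright leukocyte and endothelial markers. Without replicate 2 the age difference was 0.82. The rise over P4_WT in P21_KO was 2.88-fold (log2 1.53 ± 0.20 SE, limma adjusted p = 0.00349), and all 8 fits with an array left out kept it. Its partner Itgav read 6.88 and 7.04, then 7.18 and 7.71, then 7.30 to 7.75 in the same order of groups. The difference of Itgav was 0.49 ± 0.23 (SE) by age, with a limma adjusted p of 0.433.

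Schwann cell markers were higher in the same arrays as Itgb4, Itga7 and Itgb8. The mean over 11 measured markers was 6.23 and 5.97 in P4_WT and 7.37 to 7.72 on the 6 P21 arrays, without overlap. By age all 11 were higher and 8 passed, among them Pllp (2.58 ± 0.18 SE), Mal (2.06 ± 0.22) and Egr2 (1.81 ± 0.19), genes of myelinating cells (limma adjusted p of 0.000877 to 0.033 over the 8). Gfap was below the array median throughout (2.16 to 2.49). Ngfr, the gene of the p75 receptor used in the sort, read 5.40 and 4.73 in P4_WT, 5.52 and 4.94 in P21_WT, and 4.76 to 5.62 in P21_KO. In sorted bulk samples fewer cells of a type and less RNA per cell cannot be told apart, and the part of Schwann cell RNA in the integrin results was not tested.

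**Figure D2:**
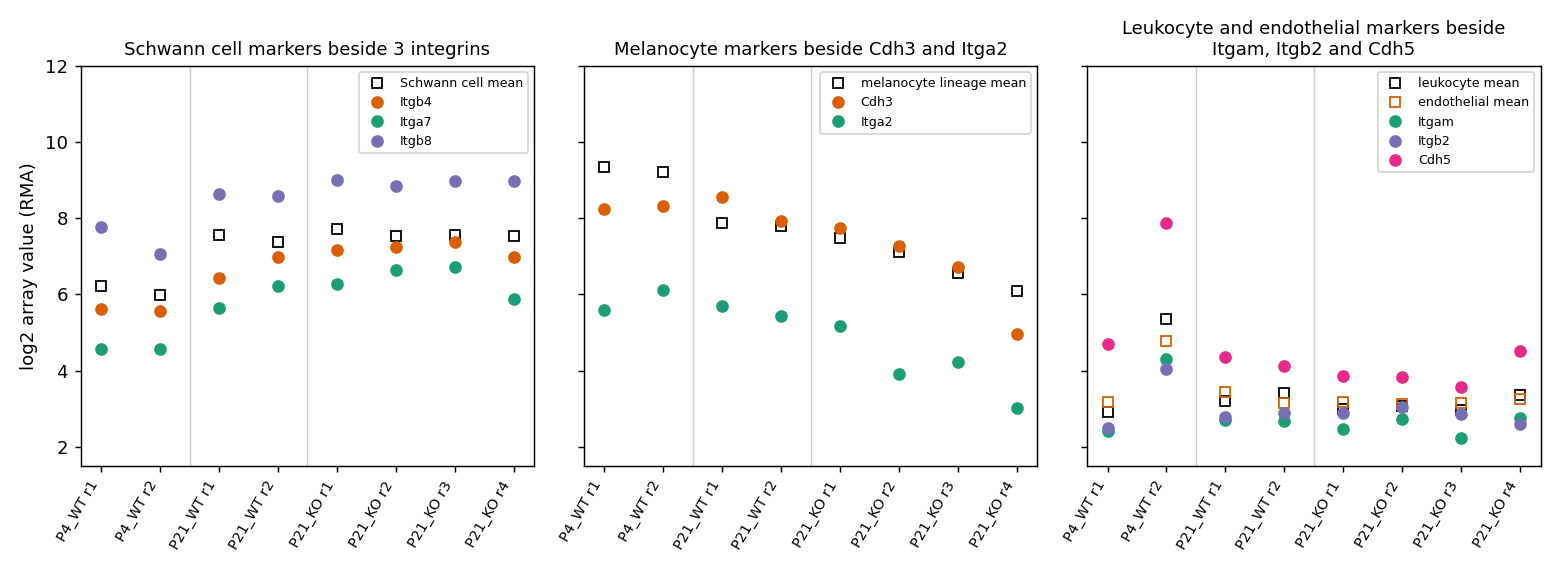
Log2 values on each of the 8 arrays for means of marker lists (open squares) and single genes (filled circles). Left, Schwann cell markers with Itgb4, Itga7 and Itgb8, all higher on the 6 P21 arrays. Middle, melanocyte lineage markers with Cdh3 and Itga2, all lowest on P21_KO replicate 4. Right, leukocyte and endothelial markers with Itgam, Itgb2 and Cdh5, all highest on P4_WT replicate 2.

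Itga4 encodes an alpha chain that binds fibronectin and VCAM-1. Its values were 4.58 and 5.48 in P4_WT, 3.64 and 3.51 in P21_WT, and 3.94, 3.75, 3.66 and 3.55 in P21_KO. Every array from older mice was lower than both P4_WT arrays. P21_KO was 2.47-fold below P4_WT (log2 -1.30 ± 0.25 SE, limma adjusted p = 0.0162), and the age difference of -1.45 ± 0.28 (SE) lay just outside the threshold (limma adjusted p = 0.0508). The higher P4_WT value came from replicate 2, the array with bright leukocyte and endothelial markers. Without that array the differences were -0.85 ± 0.21 (SE, limma adjusted p = 0.0742) for P21_KO and -1.0 ± 0.23 (SE, limma adjusted p = 0.117) by age. Itga9, which encodes a related alpha chain, was at -0.40 ± 0.27 (SE) by age.

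Itga1 and Itga2 encode alpha chains of collagen receptors that pair with the Itgb1 chain. Itga1 read 5.47 and 5.17 in P4_WT, 5.04 and 5.31 in P21_WT, and 4.61, 4.12, 4.03 and 4.24 in P21_KO. All P21_KO arrays were below all wild-type arrays of either age. The same held for genes outside the 48, such as Afdn and Ctnnb1. The share of all genes that separated so is not given here, so this separation is not particular to the members. Against P4_WT, Itga1 in P21_KO was 2.10-fold lower (log2 -1.07 ± 0.20 SE, limma adjusted p = 0.0162). This call was lost without P4_WT replicate 1 (-0.92) and without P4_WT replicate 2 (-1.22). The call was also lost with the P21_KO arrays of 1 shared label number averaged, and with the replicate block. By genotype Itga1 had the smallest p of the 48 members, with a difference of -0.92 ± 0.20 (SE) that did not pass (limma adjusted p = 0.481).

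Itga2 read 5.60 and 6.12 in P4_WT, 5.69 and 5.44 in P21_WT, and 5.17, 3.92, 4.22 and 3.02 in P21_KO. The P21_KO arrays were again all lower, but spread widely (SD 0.89, n = 4). Its genotype difference was -1.48 ± 0.49 (SE, limma adjusted p = 0.65), and -1.13 without P21_KO replicate 4. Against P4_WT it was -1.78 ± 0.49 (SE, limma adjusted p = 0.0704), and -2.14 with a limma adjusted p of 0.016 without P21_KO replicate 1. With dim genes left out the difference of -1.78 was called (limma adjusted p = 0.0329). Itga11, the third collagen-binding gene measured, was at -0.20 ± 0.17 (SE) by genotype. P21_KO and P21_WT overlapped in Itga11, and none of the 3 genes passed.

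**Figure D3:**
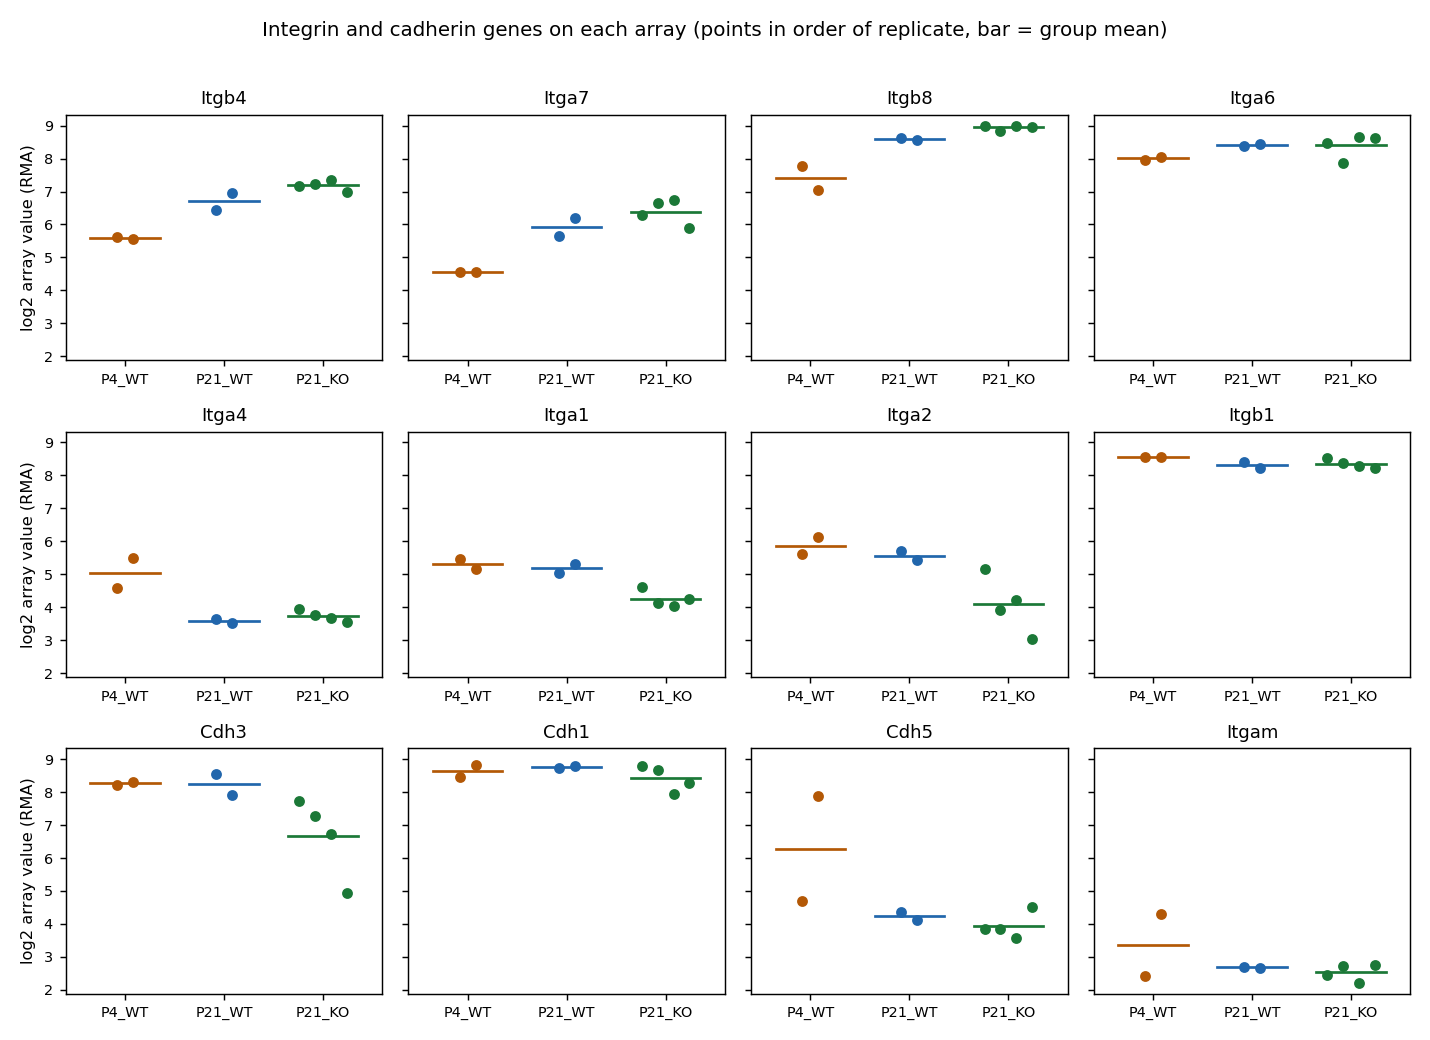
Log2 array value of 12 integrin and cadherin genes. Each point is 1 array, drawn in order of replicate within its group, and the bar is the group mean. Itgb4, Itga7 and Itgb8 were higher, and Itga4, Itgb1 and Cdh5 lower, on all 6 P21 arrays than on both P4_WT arrays. Itga1, Itga2 and Cdh3 were lower on all 4 P21_KO arrays than on any wild-type array.

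Of the genes for RGD-binding integrins, Itgb3 is the vitronectin receptor chain associated with invasive melanoma. Its values were 4.78 and 5.32, 4.80 and 5.33, and 4.92 to 5.13 in the 3 groups in order. The ranges overlapped, with 95% intervals of -0.54 to 0.57 by age and -0.50 to 0.46 by genotype. Itgb5, another partner of Itgav, varied within the P21 groups (4.98 to 6.05 in P21_WT and 5.00 to 6.48 in P21_KO). Itga5, the alpha chain of the main fibronectin receptor, was 0.68 ± 0.20 (SE) lower in P21_KO than in P4_WT and did not pass (limma adjusted p = 0.0916). It was called at the same size with P21_KO and P4_WT alone in the fit or without either P21_WT array (limma adjusted p = 0.0441). Itga8 (-0.78 ± 0.27 SE), Itga2b (0.37 ± 0.19 SE) and Itgb6 (0.05 ± 0.19 SE) did not pass in that comparison either.

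Leukocyte integrin genes were near or below the array median except on 1 array. Itgam, the alpha chain of the Mac-1 receptor of myeloid cells, read 2.41 and 4.29 in P4_WT and 2.22 to 2.76 on all other arrays. Itgb2, the beta chain of leukocyte integrins, read 2.50 and 4.03 in P4_WT and 2.60 to 3.04 elsewhere. In both genes P4_WT replicate 2 alone was high, as were the leukocyte markers there (Ptprc 5.17 against 2.48 to 2.96). Without it the age difference went from -0.67 to 0.27 for Itgam and from -0.43 to 0.33 for Itgb2, with limma adjusted p of 0.691 and 0.845 for Itgam and 0.785 and 0.723 for Itgb2. With P4_WT replicate 2 as the lone P4_WT array, Itgam differed by -1.61 by age (limma adjusted p = 0.041), and in P21_KO against P4_WT Itgam and Itgb2 differed by -1.75 and -1.18 (limma adjusted p of 0.0106 and 0.0272). Itgal, the alpha chain of LFA-1, was 3.19 on that array and 2.43 to 2.94 on the others. Itgad, Itgae, Itgax and Itgb7 lay within 0.30 of 0 in all 3 comparisons.

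Among the type I cadherins, Cdh1 showed no called difference. Its kept row read 8.46 and 8.83 in P4_WT, 8.72 and 8.79 in P21_WT, and 8.79, 8.66, 7.95 and 8.29 in P21_KO. The ranges overlapped, and the 95% interval was -0.55 to 0.76 by age and -0.90 to 0.23 by genotype. A second row for Cdh1 read 7.46 to 8.15 over all arrays, with a difference of 0.02 by age and 0.01 by genotype. Rows with close numbers on this array mostly name genes that lie close together on 1 strand. The kept row stood between Smpd3 and Chtf8, in a stretch whose neighbours were on the minus strand in 17 of 18 cases, while the second row stood between 1110028F18Rik and Tango6, where 20 of 21 were on the plus strand. 1110028F18Rik also stood next to the Cdh3 row, whose neighbours were on the plus strand in 21 cases and on the minus strand in 1. The values of the kept row may therefore not be those of Cdh1 messenger RNA. Which of the 2 rows reads it was not tested, and neither was called in any comparison.

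Cdh3 stands next to Cdh1 on chromosome 8 and had a different pattern. It read 8.23 and 8.31 in P4_WT, 8.56 and 7.92 in P21_WT, and 7.73, 7.27, 6.72 and 4.95 in P21_KO. All P21_KO arrays were below all wild-type arrays, a separation whose share over all genes is not given here. The genotype difference was -1.57 ± 0.66 (SE), with a limma adjusted p of 0.757 and an SD of 1.22 (n = 4) in P21_KO. Without P21_KO replicate 4 it was -1.0 ± 0.32 (SE, limma adjusted p = 0.65). The melanocyte marker mean ranked the P21_KO arrays in the same order as Cdh3 (7.48, 7.10, 6.56 and 6.09), and the part of melanocyte content in this result was not tested.

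Cdh2 encodes N-cadherin, which replaces E-cadherin in many migrating cells. Its kept row read 5.63 and 6.49 in P4_WT, 5.45 and 5.29 in P21_WT, and 5.41 to 5.63 in P21_KO. The age difference was -0.69 ± 0.26 (SE, limma adjusted p = 0.313), and -0.26 without P4_WT replicate 2. In P21_KO against P4_WT it was -0.51 ± 0.23 (SE, limma adjusted p = 0.254), and -0.94 with a limma adjusted p of 0.0379 without P4_WT replicate 1. A second row annotated to Cdh2 read 6.67 and 6.64, then 5.12 and 5.16, then 4.35 to 5.26, without overlap between pups and older mice. With the mean of both rows Cdh2 was called by age (-1.10 ± 0.21 SE, limma adjusted p = 0.0427) and in P21_KO against P4_WT (-1.20 ± 0.18 SE, limma adjusted p = 0.00626). Fitted among all 25335 annotated rows, the second row by itself differed by -1.52 ± 0.27 (SE) by age (limma adjusted p = 0.0389). All 19 neighbouring rows with a known place lay on chromosome 4, between Acer2 and Focad, whereas Cdh2 lies on chromosome 18. The 27 neighbours of the kept row were all on chromosome 18. Whether the second row reads Cdh2 was not tested.

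**Figure D4:**
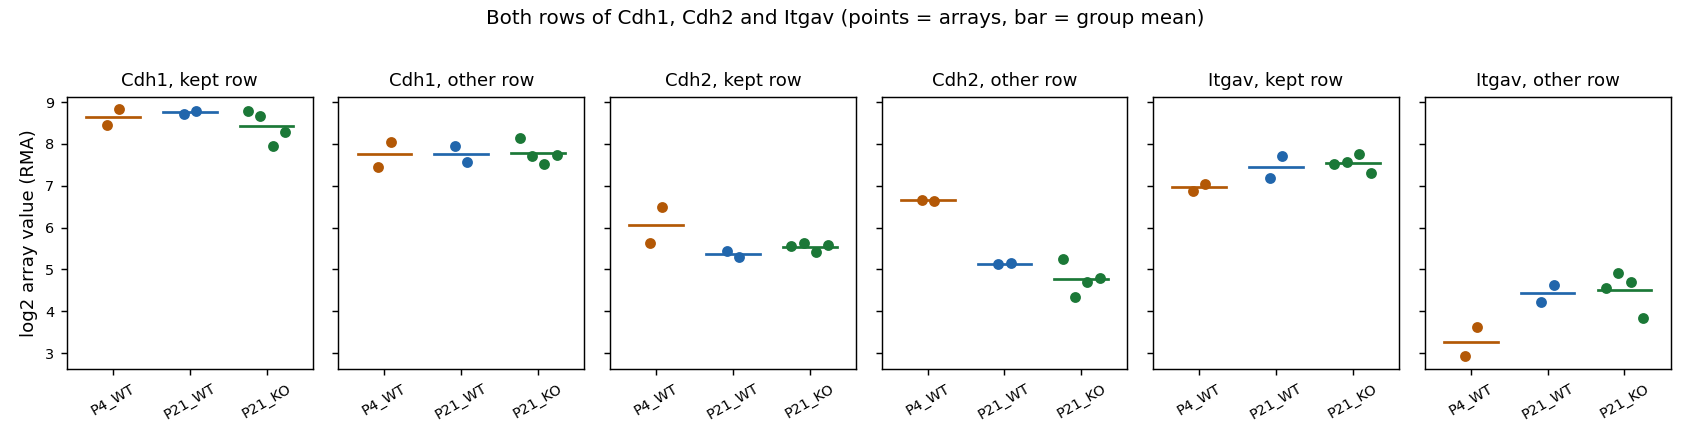
Log2 array values of both rows annotated to Cdh1, Cdh2 and Itgav, by group. Points are arrays and bars are group means. Over all arrays the kept Cdh1 row ran from 7.95 to 8.83 and the second from 7.46 to 8.15. The second Cdh2 row fell from 6.67 and 6.64 in P4_WT to 5.26 or below in older mice. In the kept Cdh2 row P4_WT replicate 1 and P21_KO replicate 2 both read 5.63.

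Cdh5 encodes VE-cadherin, the cadherin of endothelial junctions. It read 4.69 and 7.88 in P4_WT, 4.36 and 4.13 in P21_WT, and 3.58 to 4.52 in P21_KO. Only P4_WT replicate 2 was high, the array on which Pecam1 and Kdr, both endothelial, read 7.21 and 5.44 against at most 3.88 and 3.43 elsewhere. Not every endothelial marker set that array apart. Plvap and Vwf were not highest there, and Eng read 6.83 against 6.42 on P4_WT replicate 1. The Cdh5 age difference of -2.04 ± 0.83 (SE) did not pass (limma adjusted p = 0.353), and was -0.45 without P4_WT replicate 2. Leaving out P4_WT replicate 1 instead gave -3.64 with a limma adjusted p of 0.00608, and -3.93 (0.00189) for P21_KO against P4_WT. The latter comparison, -2.34 ± 0.72 (SE) with all arrays (limma adjusted p = 0.0998), was called with dim genes left out (0.0449).

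The remaining cadherins were not called in any of the 3 comparisons. Cdh6 read 6.17 and 5.57 in P4_WT, 4.54 and 5.63 in P21_WT, and 6.05, 4.51, 3.53 and 3.51 in P21_KO, with overlapping ranges. Its difference for P21_KO against P4_WT was -1.47 (limma adjusted p = 0.28), and -2.02 without P21_KO replicate 1 (limma adjusted p = 0.0363). Cdh11, the cadherin of mesenchymal cells, was 6.24 and 6.25 in P4_WT and 4.88 to 6.10 in older mice, without overlap and without a call (-0.80 ± 0.43 SE by age). Cdh19, a cadherin of Schwann cell precursors, was at 6.21 and 6.43 in P4_WT and 6.36 to 6.95 in older mice (0.49 ± 0.22 SE by age, limma adjusted p = 0.404). Cdh13, a cadherin anchored by a lipid rather than a membrane span, was at 0.49 ± 0.26 (SE) by age. Cdh4 (2.52 to 3.87 over all arrays), Cdh7 (3.37 to 3.92), Cdh10 (2.11 to 3.31), Cdh15 (2.75 to 3.33), Cdh22 (3.05 to 3.54) and Cdh24 (3.46 to 3.94) lay near the array median. Over the 31 members whose arrays are not given singly by the naming rule, changes ran from -0.80 (Cdh11) to 0.49 (Cdh13) by age, from -0.68 (Cdh6) to 0.40 (Itgb5) by genotype, and from -1.47 (Cdh6) to 0.45 (Cdh13) in P21_KO against P4_WT. None of these 31 was called, with smallest limma adjusted p of 0.404, 0.818 and 0.0916. Itga3, Itga5 and Cdh6 were called in the last comparison under the settings given with each.

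Partners of these receptors are described by the counts and medians of lists. Of 23 genes for integrin adaptors and focal adhesions, 14 were higher and 9 lower by age, with a median of 0.18. In each direction 1 was called. Cd9, a tetraspanin associated with integrins, rose by 1.15 ± 0.16 (SE) and Parvb, an adaptor between integrins and actin, fell by 1.73 ± 0.17 (limma adjusted p of 0.0146 and 0.00323). Both were called in P21_KO against P4_WT as well, with Tns3 (1.46 ± 0.19 SE), a tensin, and Actn1 (-1.64 ± 0.36 SE), an actin crosslinker. By genotype Parvb (-0.57) and Itgb1bp1 (-0.56) had the smallest p and did not pass (limma adjusted p of 0.565 and 0.635).

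Among 6 measured hemidesmosome partners of Itgb4, all were higher by age, 1 past the threshold, with a median of 0.50. Col17a1, the transmembrane collagen of hemidesmosomes, read 4.48 and 4.41 in P4_WT, 5.84 and 6.15 in P21_WT, and 5.56 to 5.98 in P21_KO. It rose by 1.55 ± 0.20 (SE, limma adjusted p = 0.0105). Plec, the linker to keratin, was at 0.85 ± 0.19 (SE, limma adjusted p = 0.0797) by age and rose by 1.09 ± 0.17 (SE, limma adjusted p = 0.00688) in P21_KO over P4_WT. Of the 15 keratinocyte markers measured, 10 were higher by age, with means of 6.45 and 5.70 in P4_WT and 6.14 to 7.03 in older mice, and their part in these values was not tested. Lama3, a laminin chain, was at -0.42 ± 0.24 (SE) by genotype.

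Integrin ligands were lower in 12 of 18 cases by age, with a median of -0.12. Tnc, the gene of tenascin-C, fell from 7.35 and 7.01 in P4_WT to 5.05 and 5.19 in P21_WT (-2.06 ± 0.18 SE, limma adjusted p = 0.00173), and was 5.05 to 5.27 in P21_KO. In P21_KO against P4_WT, Tnc, Npnt, Fn1 and Postn were called, all lower. Npnt, a ligand in basement membranes, fell there by 1.84 ± 0.22 (SE), Fn1, fibronectin, by 2.42 ± 0.47 (SE) and Postn, periostin, by 1.81 ± 0.35 (SE). By genotype Npnt (-0.72) and Fn1 (-1.55) had the smallest p, both at a limma adjusted p of 0.609.

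Catenins and other cadherin partners were higher in 12 of 17 cases by age, with a median of 0.16 and 3 called. Ctnna3, an alpha catenin, rose by 2.40 ± 0.22 (SE), Plekha7, a junction protein, by 1.85 ± 0.20 and Tjp1, the gene of ZO-1, by 1.08 ± 0.20 (limma adjusted p of 0.0023, 0.0046 and 0.0387). These were called in P21_KO against P4_WT too, along with Arvcf, a catenin (1.33 ± 0.19 SE), Ctnnb1, beta-catenin (-1.08 ± 0.19 SE), and Afdn, afadin (-1.34 ± 0.14 SE). Afdn was at -0.87 ± 0.14 (SE) and Ctnnb1 at -0.72 ± 0.19 (SE) by genotype, with limma adjusted p of 0.284 and 0.565. All 13 desmosome genes were measured and none was called in any comparison, with Ppl at 0.95 and Dsg1b at 0.48 by age, and Ppl at -0.50 and Dsg2 at -0.60 by genotype.

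Of 11 transcription factors that regulate cadherins or the epithelial state, 9 had values below 0 by age (median -0.20) and 9 by genotype (median -0.31), and none passed. Grhl2 and Ovol1, which support the epithelial state, are among these 9 both times. Without them 7 of 9 were below 0 in each comparison, with medians of -0.20 and -0.19. Tcf3 was at -0.59 and Tcf4 at -0.63 by age. By genotype Twist1 was at -0.75 and Tcf4 at -0.74. In P21_KO against P4_WT, Tcf4 fell by 1.36 ± 0.27 (SE) and Twist1 by 0.95 ± 0.23 (SE), with limma adjusted p of 0.0191 and 0.041.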

How the data were processed

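The submitters' processing notes name RMA and Affymetrix Expression Console as the source of the deposited log2 values, with versions and settings not given in the sources used here. RMA subtracts background, brings arrays to one distribution and summarises probe sets, which compresses differences near the floor. Of 41345 rows, 23521 had exactly 1 gene symbol in the platform annotation, 1814 had several and 16010 were unnamed here. The row with the highest mean was kept per symbol, which left 22180 genes, with no filter on dim genes.

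All 8 arrays entered 1 limma model of group means (version 3.58.1, R 4.3.3, lmFit and eBayes, 5 residual degrees of freedom). P-values are two-sided and adjusted by Benjamini-Hochberg over all genes, and a call is an adjusted p under 0.05. With 2 to 4 arrays in a group, precision is limited by their number.

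Values on single arrays are given for members called in any comparison, the 4 with the smallest p in each, and 13 members fixed by name. All other members have a level, range or change, and Itga3, Itga5, Itgb5, Cdh6, Cdh11, Cdh15, Cdh19 and Cdh22 have array values or group ranges, chosen after their values were seen. Partner lists name the called genes and otherwise the 2 with the smallest p. The members and lists were chosen with earlier results of these data known. Neighbours of a row are the 15 annotated rows on each side. Same-numbered replicates of different groups were not related (correlations of their deviations of -0.0296 to -0.00987) and were not treated as pairs. Alternatives covered arrays, priors, weights, normalization, dim genes, probe sets, thresholds and single arrays. The fit of every annotated row was added after the data were seen.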

Additional observations from a re-analysis of the deposited data

Results flagged for a closer look

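On the 4 P21_KO arrays, 4 of the 48 members had 1 array far from the other 3 relative to the range of the group. Chance gives such a pattern in about 1 in 20 groups. Itgb8 read 8.84 in replicate 2 against 8.97 to 8.99 on the others, a small gap in a narrow range. Cdh15, a muscle cadherin gene, read 3.15 in replicate 2 against 2.81 to 2.87. Cdh22 read 3.05 in replicate 2 against 3.20 to 3.22. Itga5 read 3.89 in replicate 1, the array that does not share the label number of the other 3, against 3.61 to 3.65.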

How the results depend on the processing

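Of 323 alternative values for 17 log2 changes of named members, 278 kept direction and side of the threshold, 34 lost a call, 10 gained one and 1 changed sign, that of Itga1 by age (0.00 without P4_WT replicate 1, and -0.29 to 0.00 with any 1 array left out). By age 357 genes and 2 members were called. At an adjusted p under 0.10 these were 674 and 4, with the 2 groups alone 49 and 0, and with the replicate block 45 and 0. A single member was called with a trended prior (Itgb8), with median centring (Itga4) and with the 3 P21_KO arrays of 1 label number averaged (Itga7). There were 4 with cyclic loess (Itga4, Itga7, Itgb4 and Itgb8) and with the mean of a gene's rows (Cdh2, Itga4, Itgb4 and Itgb8). The Cdh2 mean includes the second row, whose neighbours lay on chromosome 4. Leaving out 1 array gave 119 to 338 genes and 0 to 4 members, with 0 members without any one of P4_WT replicate 2, P21_WT replicates 1 and 2 and P21_KO replicates 1, 2 and 3. By genotype no member was called in any alternative, and the count of genes was 1 with the averaged arrays and 0 to 15 with an array left out. For P21_KO against P4_WT, 1715 genes and 5 members became 463 and 2 with the replicate block and 977 and 3 with the averaged arrays. Itga7 and Itgb4 were called in both, Itgb8 with the averaged arrays only, and Itga1 and Itga4 in neither. There were 8 members at 0.10, and 921 to 1529 genes and 4 to 8 members with an array left out. An arm left with 1 array is assumed to vary like the others. The cause of these shifts was not tested. Signal near the array median limits what can be seen for dim members.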

Other observations

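2 further rows name a member together with another gene and were not used above. The row shared by Itgb4 and B230344G16Rik read 4.18 and 3.63 in P4_WT, 4.21 and 4.88 in P21_WT, and 4.52 to 4.94 in P21_KO. Its difference for P21_KO against P4_WT was 0.86 ± 0.24 (SE, limma adjusted p = 0.0731 over all 25335 annotated rows). The row shared by Cerkl and Itga4 read 2.08 to 2.56 on all arrays, below the array median. The second Itgav row read 2.92 and 3.63 in P4_WT, 4.22 and 4.64 in P21_WT, and 3.83 to 4.92 in P21_KO, without overlap between pups and older mice, with a difference of 1.15 ± 0.38 (SE, limma adjusted p = 0.227) by age. Its neighbours lay on the minus strand in 21 of 21 cases, and those of the kept Itgav row on the plus strand in 18 of 26.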
